A study of Mus musculus with 12 samples.

Results

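RNA from adult pancreatic beta cells was compared with RNA from beta cells of 10-day-old mice, an interval in which mouse pups pass from milk to solid food. The members are all samples titled as adult or P10, which are 5 of the 12 samples of the series. The 3 adult samples came from animals of 5 weeks and the 2 P10 samples from pups at postnatal day 10. The other samples were taken at E18.5, shortly before birth (4 samples), and at P1, the first day after birth (3 samples). All 12 came from heterozygous animals of a Pdx1-GFP transgenic strain crossed with ICR, an outbred stock. In these animals the Pdx1 promoter, which is active in beta cells and other cells of the pancreas, drives green fluorescent protein (GFP), so the sort follows that promoter and not insulin itself. Islets were taken apart with trypsin, GFP-positive cells were collected by flow sorting, and the biotin-labelled copy RNA of each sample was hybridised to an Illumina array. There was no treatment and no second genotype. Whether the replicates of an age are separate litters is not in the labels, so the p-values cover the spread between these samples alone, and that spread may be technical.

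Beta cells make and release insulin. In the newborn they still divide and respond weakly to glucose, and over the following weeks they mature, multiply less and take on a heavy load of protein synthesis in the endoplasmic reticulum. Cells that lack amino acids, or whose endoplasmic reticulum is overloaded, slow protein synthesis and make more of the transcription factor ATF4, which turns on genes of amino acid synthesis, amino acid uptake and stress control.

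Levels are given below as normalised log2 intensities, differences as adult minus P10 in log2 units ± standard error, and p-values as limma's after Benjamini-Hochberg adjustment over all 9838 genes tested. A gene is said to have risen or fallen only where its adjusted p is below 0.05. Between 47.06% and 47.16% of probes lay above background at P10 and between 42.34% and 44.84% in adults. The background limit was 42.87 and 42.98 on the P10 arrays and 46.05, 44.55 and 46.47 on the adult arrays. Being above background is thus a stricter mark in the adults, and counts of it do not compare the ages at 1 limit. Across genes, which are not independent replicates, the P10 pair correlated with r of 0.987, adult pairs with r of 0.978 to 0.986, and adult with P10 samples with r of 0.958 to 0.970.

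The sorted cells carried the marks of beta cells, but not of beta cells alone. Ins2, an insulin gene, lay at the bright end of the arrays, at 13.53 and 13.53 at P10 and at 13.53, 13.42 and 13.58 in adults. After quantile normalization the brightest probes of every array take values from the same short set. Levels there are close to ranks and do not compare the amounts of these RNAs between genes or ages. Hormone genes of other islet cells were bright as well. Sst, the somatostatin gene of delta cells, was at 13.48 and 13.39 at P10 and at 13.39, 13.39 and 12.52 in adults. Gcg, the glucagon gene of alpha cells, was at 12.80 and 13.42 at P10 and at 13.42, 13.24 and 9.36 in adults, so adult replicate 3 lay far below the other samples. The same sample was the lowest for Ppy, the pancreatic polypeptide gene, at 11.93 and 12.75 at P10 and at 12.34, 11.92 and 8.85 in adults. P10 replicate 2 stood apart in another way: its 8 tested markers of stromal cells averaged 5.79, against 4.79 in P10 replicate 1 and 4.60 to 4.66 in adults. The 27 tested markers of acinar cells, the enzyme-making cells of the exocrine pancreas, averaged 10.39 and 9.04 at P10 and 9.69, 10.98 and 9.93 in adults, so these groups overlap. Of the leukocyte markers, Ptprc, Tyrobp and Fcer1g were not above background on at least 2 arrays and were not tested. The 5 that were tested averaged 4.76 and 5.12 at P10 and 4.51, 4.81 and 4.56 in adults. Among them, Laptm5 and Lyz2 were above background in both P10 samples and in 1 adult sample each. In such sorted pools fewer cells of a type and less RNA per cell cannot be told apart.

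**Figure D1:**
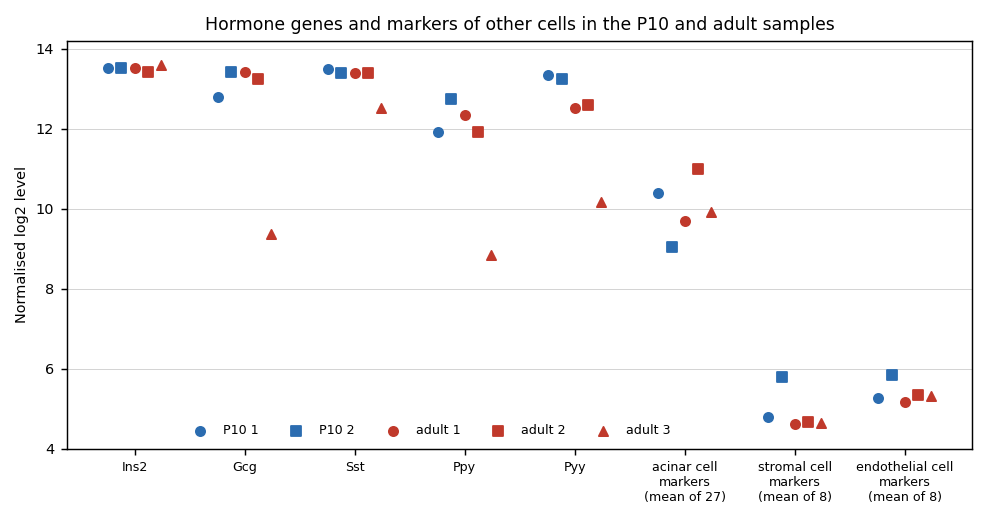
Normalised log2 level (y axis) of 5 hormone genes and mean level of 3 marker lists in each P10 (blue) and adult (red) sample. Each point is 1 sample. Adult replicate 3 is low for Gcg, Ppy and Pyy, and P10 replicate 2 is high for stromal markers. Ins2 lies between 13.42 and 13.58 in all 5, where levels are close to ranks.

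Between P10 and 5 weeks, 1223 of 9838 genes changed (12.4%), of which 557 rose (5.66%) and 666 fell (6.77%). Called or not, 4843 genes had a positive difference and 4995 a negative one. The counts of each list below are to be read beside these. All lists were chosen with earlier results of these data known, so their counts are descriptions. Members of a list share the same 5 samples, so their directions are not independent. With arrays centred on their median in place of quantile normalization, 380 rose and 823 fell. The groups did not overlap in 4025 genes (40.9%), which is why a lack of overlap alone is not used as a call with so few samples. At least 2-fold changes were found in 82 of the genes that rose and 139 of those that fell, and at least 4-fold changes in 11 and 21. The count rests on both P10 samples: without P10 replicate 1 it was 630, and without P10 replicate 2 it was 506. Testing against a minimum change of 1.5-fold left 89 genes, 33 higher and 56 lower in adults.

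**Figure D2:**
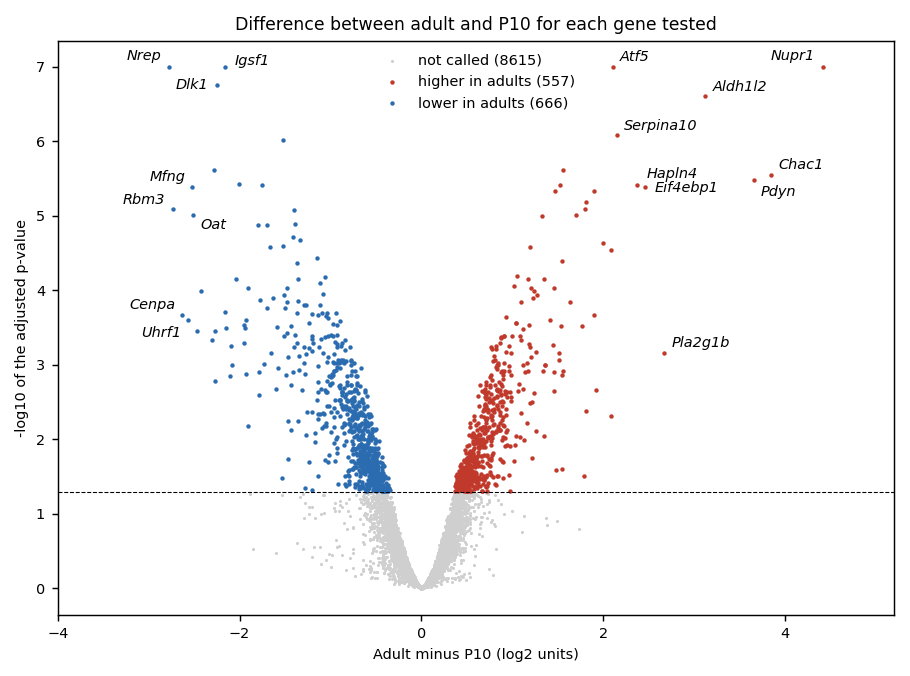
Each point is 1 of 9838 genes, with adult minus P10 in log2 units on the x axis and the -log10 of the adjusted p on the y axis. The dashed line is the threshold of 0.05, and labels name leading rises and falls, from Nupr1 at 4.41 to Nrep at -2.78.

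The 2 largest rises among the genes called were Nupr1 and Chac1, both known targets of the ATF4 response. Nupr1, a small stress-induced nuclear protein, was at 6.39 and 5.91 at P10 and at 10.14, 10.88 and 10.65 in adults. It thus rose 21.3-fold (difference 4.41 ± 0.25, adjusted p = 9.99e-08), and its means at E18.5 and P1 were 4.93 and 5.07. Chac1, an enzyme that breaks down glutathione, was at 6.65 and 6.92 at P10 and at 9.81, 11.15 and 10.92 in adults, a 14.3-fold rise (3.84 ± 0.31, adjusted p = 2.81e-06). Adults and P10 samples were widely separated for both genes, and the lowest adult level of each was that of replicate 1. Eif4ebp1, which holds back the start of translation by binding the cap-binding factor, was at 6.31 and 6.18 at P10 and at 8.19, 9.09 and 8.82 in adults, a 5.5-fold rise (2.46 ± 0.21, adjusted p = 4.07e-06). Its means at E18.5 and P1, 7.47 and 7.33, lay above both P10 samples. Atf5, a transcription factor related to ATF4, was at 9.18 and 9.17 at P10 and at 11.31, 11.25 and 11.29 in adults, a 4.3-fold rise (2.11 ± 0.12, adjusted p = 9.99e-08). At P10 and in adults its samples were the closest together of these 4 genes.

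Among 18 tested regulators and targets of ATF4, 9 rose (50%, against 5.66% of all genes) and none fell. Their median difference was 0.50 against -0.005 over all genes. Like the other lists, this one was drawn up with earlier results known, here values of some members, so its count is a description. Beside the 4 genes above, Atf4 itself rose 1.79-fold, from 6.72 and 6.79 to 7.13, 7.79 and 7.85 (0.84 ± 0.18, adjusted p = 0.007). Fgf21, a secreted stress hormone, was not above background in either P10 sample and reached 4.77, 5.71 and 5.50 in adults, at least 1.44-fold higher (adjusted p = 0.0103). Trib3, a pseudokinase that feeds back on the pathway, was at least 1.37-fold higher (adjusted p = 0.0207). Ddit3, the stress factor CHOP, rose 1.64-fold (adjusted p = 0.0437), and Herpud1, of protein disposal at the endoplasmic reticulum, rose 1.5-fold (adjusted p = 0.0324). The 9 genes that did not pass include Ppp1r15a, which restores translation under stress, at 7.77 and 8.76 at P10 and 7.75, 8.20 and 7.22 in adults. The 4 leading genes passed without any 1 of the 12 samples, but the 5 others did not. Without P10 replicate 1, 4 genes of the list rose and the adjusted p was 0.0636 for Atf4, 0.085 for Fgf21, 0.156 for Trib3, 0.428 for Ddit3 and 0.225 for Herpud1. Without P10 replicate 2, 5 rose, Ddit3 among them, and the other 4 had an adjusted p of 0.0522 to 0.0896. Trib3, Ddit3 and Herpud1 also missed the threshold without adult replicate 2 (adjusted p 0.0744, 0.106 and 0.0984) or 3 (0.0531, 0.0769 and 0.0931), and Ddit3 without adult replicate 1 (0.0704), E18.5 replicate 3 (0.0563) or P1 replicate 1 (0.0513).

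ATF4 and its partners bind a composite DNA element, the C/EBP-ATF response element. Its core, searched as TGATGNAA on both strands, was found in the 250 bases before the start in 6 of 19 promoters of the tested ATF4 list genes and in 2 of 13 promoters of the tested synthesis genes. Among promoters of the members that rose it was in 4 of 9 and in 1 of 9. A gene can have more than 1 promoter in the table, and of the leading genes Eif4ebp1 and Aldh1l2 had none to search and Atf5 held no match. It was found in 3.45% of all 32851 RefSeq promoters and in 2.11% of the 10327 promoters of genes tested here. A match is a description of the letters and not a measured site. The 5 promoters are shown because they are those with a match among the members of both lists that rose, as 250 bases read 5′ to 3′ on the gene's strand (RefSeq, GRCm38.p6), with the match in capitals, written as its reverse complement where it lies on the opposite strand. Asns encodes asparagine synthetase, and its values follow below.
Nupr1, chr7:126625471-126625720, minus strand: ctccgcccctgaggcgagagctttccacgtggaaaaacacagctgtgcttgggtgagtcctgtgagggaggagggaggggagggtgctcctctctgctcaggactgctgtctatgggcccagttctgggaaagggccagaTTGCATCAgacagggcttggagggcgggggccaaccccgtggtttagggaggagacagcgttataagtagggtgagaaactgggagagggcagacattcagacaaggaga
Chac1, chr2:119350992-119351241, plus strand: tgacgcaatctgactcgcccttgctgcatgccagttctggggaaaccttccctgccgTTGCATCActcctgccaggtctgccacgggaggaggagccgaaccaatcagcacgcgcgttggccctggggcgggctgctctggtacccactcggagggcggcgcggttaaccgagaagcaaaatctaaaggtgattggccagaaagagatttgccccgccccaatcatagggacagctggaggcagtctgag
Fgf21, chr7:45615491-45615740, minus strand: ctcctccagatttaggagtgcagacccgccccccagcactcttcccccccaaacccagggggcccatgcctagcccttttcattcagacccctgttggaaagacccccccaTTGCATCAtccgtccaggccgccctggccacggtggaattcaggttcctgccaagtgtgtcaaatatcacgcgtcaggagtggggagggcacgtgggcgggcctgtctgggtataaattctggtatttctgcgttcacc
Herpud1, chr8:94386179-94386428, plus strand: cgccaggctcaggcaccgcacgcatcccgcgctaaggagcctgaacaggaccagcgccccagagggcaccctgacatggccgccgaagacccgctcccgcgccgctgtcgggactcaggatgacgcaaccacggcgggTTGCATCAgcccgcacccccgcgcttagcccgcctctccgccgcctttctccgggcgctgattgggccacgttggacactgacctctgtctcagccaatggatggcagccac
Asns, chr6:7693210-7693459, minus strand: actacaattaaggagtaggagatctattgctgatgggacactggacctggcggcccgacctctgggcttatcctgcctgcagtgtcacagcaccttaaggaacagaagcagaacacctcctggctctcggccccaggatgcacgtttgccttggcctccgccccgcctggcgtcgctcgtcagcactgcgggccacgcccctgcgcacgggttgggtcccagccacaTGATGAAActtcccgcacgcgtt
In Nupr1, Chac1, Fgf21 and Herpud1 the matched letters are the same and lie on the opposite strand, and in Asns the match lies on the gene's own strand. The match begins 110 bases before the annotated start in Nupr1, 193 in Chac1, 139 in Fgf21, 112 in Herpud1 and 23 in Asns.

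Enzymes that make serine, asparagine and one-carbon units rose with them. Of 13 tested genes of this list 9 rose (69.2%, against 5.66% of all genes) and none fell, with a median difference of 0.90. Aldh1l2, a mitochondrial enzyme of folate metabolism, was at 5.52 and 5.35 at P10 and at 8.31, 8.96 and 8.41 in adults, an 8.7-fold rise (3.12 ± 0.20, adjusted p = 2.49e-07). Cbs, which channels homocysteine toward cysteine, went from 5.32 and 5.08 to 7.02, 6.62 and 7.06, a 3.24-fold rise (1.70 ± 0.16, adjusted p = 9.6e-06). Asns, asparagine synthetase, went from 9.61 and 9.46 to 11.0, 11.18 and 11.09, a 2.94-fold rise (1.56 ± 0.12, adjusted p = 2.41e-06). For all 3 genes the adult samples lay above both P10 samples by more than the samples of an age differed from each other. Psat1 and Phgdh, which make serine, rose 2.74-fold (adjusted p = 0.00125) and 2.12-fold (adjusted p = 0.0092), and the mitochondrial folate enzyme Mthfd2 rose 2.34-fold (adjusted p = 0.000127). Gpt2, an alanine aminotransferase, rose 1.87-fold (adjusted p = 0.00123). Without P10 replicate 2, Phgdh no longer passed (adjusted p = 0.151). Got1, Got2 and Mthfd1, also of this list, had differences of 0.27, -0.31 and -0.20 and did not pass, although Got2 did with a normexp offset of 50 (adjusted p = 0.0418).

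Amino acid carriers and the enzymes that load amino acids onto transfer RNA moved gene by gene. Of 10 tested transporters 4 rose (40%) and 1 fell (10%), against 5.66% and 6.77% of all genes. Slc1a4, a carrier of alanine, serine and cysteine, was at 5.40 and 4.97 at P10 and at 6.83, 6.92 and 7.22 in adults, a 3.48-fold rise (1.80 ± 0.16, adjusted p = 8.15e-06). Slc6a9, a glycine transporter, rose 2.2-fold (adjusted p = 0.00123), and Slc7a2, a carrier of cationic amino acids, 1.7-fold (adjusted p = 0.00476). A second, dimmer probe of Slc7a2 differed by 0.02, and with the mean of both probes the gene did not pass (adjusted p = 0.0566). Slc38a5, a glutamine carrier, went the other way, from 10.03 and 10.21 to 7.97, 8.28 and 9.01, a 3.25-fold fall (-1.70 ± 0.22, adjusted p = 0.000173). Its means at E18.5 and P1 were higher still, 12.69 and 12.54. Of 16 tested cytosolic aminoacyl-tRNA synthetases 4 rose (25%, against 5.66% of all genes) and none fell. The methionine enzyme Mars1 led them and went from 7.26 and 7.13 to 8.69, 8.63 and 8.82 (2.87-fold, 1.52 ± 0.13, adjusted p = 3.89e-06). Iars (isoleucine), Aars (alanine) and Sars (serine) rose 1.91-fold, 1.84-fold and 1.69-fold, with adjusted p of 0.000668, 0.00126 and 0.00137. Of the other 12, Tars, the threonine enzyme, had the largest difference, 0.46, and did not pass (adjusted p = 0.0824, or 0.0353 without adult replicate 2).

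**Figure D3:**
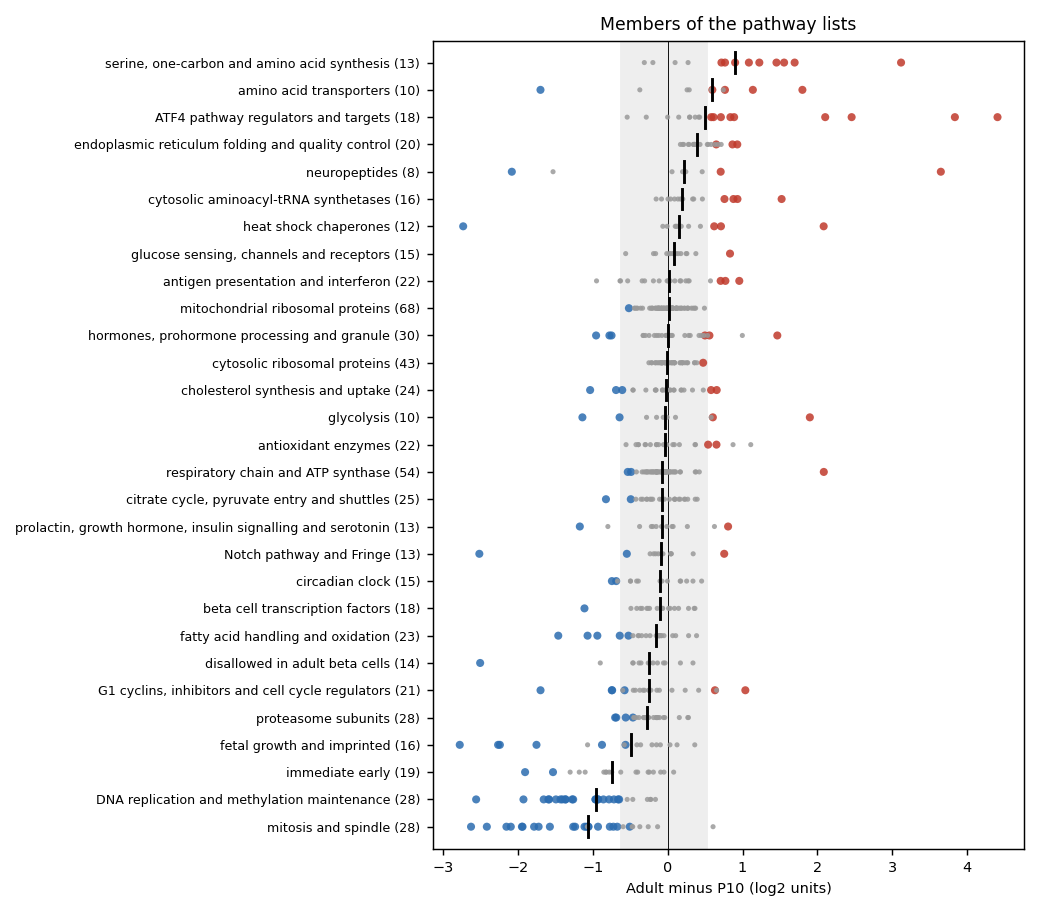
Adult minus P10 in log2 units (x axis) for the tested members of 29 pathway lists (y axis, number tested in brackets). Red points rose, blue points fell, small grey points did not pass, black bars are list medians, and the grey band holds the middle 90% of all genes tested.

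Chaperones of the endoplasmic reticulum leaned upward with small differences. All 20 tested genes of folding and quality control had positive differences (4843 of 9838 over all genes), with a median of 0.40. Only 3 of them rose (15%, against 5.66% of all genes). Pdia6, a protein disulfide isomerase, went from 8.16 and 7.81 to 8.62, 8.74 and 9.40 (1.91-fold, adjusted p = 0.00477), and Dnajb9, a co-chaperone, from 10.26 and 10.38 to 11.35, 11.19 and 11.02 (1.82-fold, adjusted p = 0.00606). Hspa5, the main chaperone BiP, was at 8.94 and 8.70 at P10 and at 9.09, 8.98 and 9.22 in adults and did not pass (adjusted p = 0.536). Without P10 replicate 1, Dnajb9 no longer passed (adjusted p = 0.0637), and without P10 replicate 2 the same held for Pdia6 (0.0879) and 1 gene of the list rose. Without adult replicate 1, 5 rose. Among 12 tested heat shock genes and cold-inducible genes 25% rose and 8.33% fell, against 5.66% and 6.77% of all genes. Hsph1, a large cytosolic chaperone, was at 7.70 and 7.95 at P10 and at 9.61, 9.80 and 10.32 in adults (4.24-fold, 2.09 ± 0.22, adjusted p = 2.86e-05). Rbm3, an RNA-binding protein made more in the cold, was at 9.86 and 10.11 at P10 and at 6.89, 7.08 and 7.77 in adults, a 6.66-fold fall (-2.74 ± 0.25, adjusted p = 8.15e-06). Cirbp, the other cold-inducible gene on the list, was at 9.91 and 10.25 at P10 and at 9.88, 9.93 and 10.24 in adults, with overlapping groups (adjusted p = 0.824). The list had 3 rises and 1 fall, and 1 rise without P10 replicate 1, P10 replicate 2 or adult replicate 2.

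The other leading rises were of several kinds. Pdyn, the precursor of dynorphin opioid peptides, was at 7.04 and 7.24 at P10 and at 10.66, 10.28 and 11.44 in adults, a 12.6-fold rise (3.65 ± 0.30, adjusted p = 3.27e-06). Hapln4, a link protein of the extracellular matrix, went from 6.14 and 6.31 to 8.47, 8.22 and 9.12 (5.18-fold, adjusted p = 3.89e-06). Serpina10 and Serpina7, secreted proteins of the serpin family, rose 4.44-fold (adjusted p = 8.34e-07) and 3.79-fold (adjusted p = 0.00216). For Serpina10 the adults spanned 10.02 to 10.21, whereas for Serpina7 they spanned 5.64 to 7.45. Serpina7 was above background in 1 P10 sample. Eno2, the neuronal enolase, rose 3.73-fold from 6.69 and 7.0 to 8.84, 8.71 and 8.67 (adjusted p = 4.65e-06). Kcnf1, a modulatory potassium channel subunit, and Mt3, a metallothionein, were not above background in either P10 sample and were at least 3.69-fold (adjusted p = 2.34e-05) and at least 3.24-fold (adjusted p = 0.000215) higher in adults. Cox6a2, a subunit of cytochrome c oxidase best known from muscle, was at 9.80 and 8.21 at P10 and at 10.64, 11.16 and 11.49 in adults (adjusted p = 0.00479), and it did not pass without P10 replicate 2 (adjusted p = 0.114).

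Pla2g1b, the pancreatic phospholipase A2, was also among the 15 largest rises, at 6.56 and 5.74 at P10 and at 8.08, 10.01 and 8.36 in adults (6.35-fold, 2.67 ± 0.41, adjusted p = 0.000686). It was highest in adult replicate 2, the sample with the highest acinar marker mean, 10.98, and lower at P10 in replicate 2, the sample with the lowest mean of the 5, 9.04. Of the 27 tested acinar markers 5 rose and none fell, with a median of 0.46. Over all genes 5.66% rose and 6.77% fell, so the share of acinar markers that rose was above that of all genes. Ctrc, Gp2 and Cela1, exocrine secretory proteins, rose 3.46-fold, 2.91-fold and 2.78-fold with adjusted p of 0.0312, 0.0248 and 0.0258. All 3 calls ended without P10 replicate 2 (adjusted p 0.397, 0.288 and 0.299), and those of Ctrc and Cela1 also ended without adult replicate 2 (0.0908 and 0.0951). The list had 1 rise without P10 replicate 2 and 3 without adult replicate 2. Bhlha15, a transcription factor of secretory cells, and Reg2, a secreted lectin-like protein, were the other members that rose. Bhlha15 was at 8.03 and 8.38 at P10 and at 9.29, 9.23 and 9.35 in adults, and Reg2, not above background in either P10 sample, was at least 1.76-fold higher (adjusted p = 0.00497). Bhlha15 did not pass without P10 replicate 1 (adjusted p = 0.0701), nor Reg2 without P10 replicate 2 (0.0567). With the acinar marker mean as a term in the fit, the difference of Pla2g1b was 2.42 (adjusted p = 0.000503), and 996 of the 1223 calls remained. The marker mean itself ran with age: adults (10.2) and P10 (9.71) lay above P1 (6.31) and E18.5 (5.46). Because age is also in the fit, the term draws only on differences between samples of the same age. Whether acinar cells account for the rise of Pla2g1b was not tested.

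**Figure D4:**
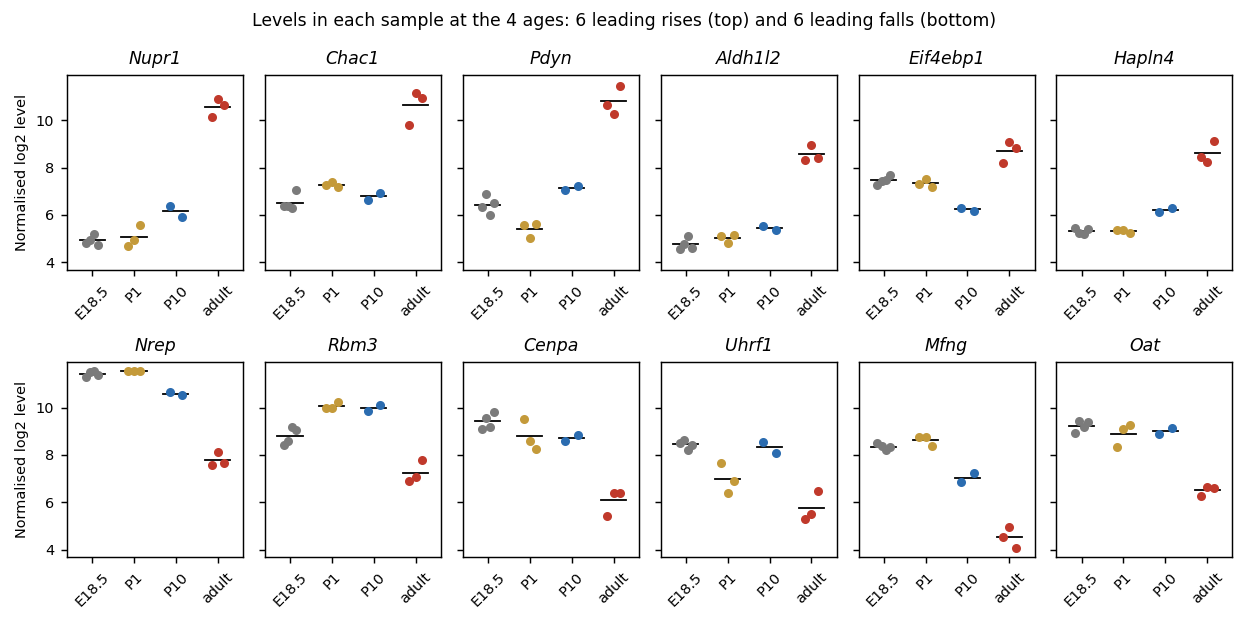
Normalised log2 level (y axis) of 12 genes in each sample at E18.5, P1, P10 and adult age. Points are samples and bars are means, and the adult samples of each gene lie wholly above (top row) or wholly below (bottom row) both P10 samples.

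Genes of cell division were lower in adults. Of 28 tested genes of mitosis and the spindle 20 fell (71.4%, against 6.77% of all genes) and none rose, with a median difference of -1.07. Cenpa, the histone variant that marks centromeres, was at 8.58 and 8.84 at P10 and at 5.44, 6.40 and 6.40 in adults, a 6.19-fold fall (-2.63 ± 0.34, adjusted p = 0.000213). Pbk, a mitotic kinase, went from 8.74 and 8.35 to 5.71, 6.36 and 6.30 (5.35-fold, -2.42 ± 0.29, adjusted p = 0.000102), and Nusap1, a spindle protein, from 7.81 and 7.59 to 4.94, 5.71 and 5.97 (4.46-fold, -2.16 ± 0.28, adjusted p = 0.000197). Prc1, which bundles microtubules at cell division, fell 4.28-fold (adjusted p = 0.000551), Top2a, the topoisomerase of dividing cells, 3.31-fold (adjusted p = 0.000964), and Kif22, a chromosome-arm motor, 2.36-fold (adjusted p = 0.000272). Spc25, a kinetochore subunit, was alone among the 28 in having a positive difference, from 8.83 and 8.40 to 9.27, 9.24 and 9.15, and did not pass (adjusted p = 0.0562). It passed as a rise without E18.5 replicate 1 (0.0377) or 4 (0.0168) and under 5 other settings, with adjusted p of 0.0255 to 0.0459. A second, dimmer probe of Nusap1 differed by -0.19. Without P10 replicate 1, 13 genes of this list fell.

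Most tested genes of DNA replication and of the copying of DNA methylation fell in the same interval. Of 28 tested, 22 fell (78.6%, against 6.77% of all genes) and none rose, all 28 differences were negative and the median was -0.96. Uhrf1, which brings the methyltransferase Dnmt1 to newly copied DNA, was at 8.54 and 8.09 at P10 and at 5.28, 5.50 and 6.48 in adults, a 5.91-fold fall (-2.56 ± 0.34, adjusted p = 0.000253). Dnmt1 itself went from 7.04 and 6.79 to 6.0, 5.94 and 6.0, a 1.91-fold fall (adjusted p = 0.000582). Of the helicase that opens DNA for copying, Mcm5 fell 3.81-fold (adjusted p = 0.000248) and Mcm4 2.7-fold (adjusted p = 0.000301). Cdt1, which loads that helicase, fell 2.82-fold (adjusted p = 0.000173), and Tk1, thymidine kinase, 2.58-fold (adjusted p = 0.000202), while a second, dimmer probe of Tk1 differed by -0.06. Tk1 was above background in 1 adult sample, so the size of its fall is uncertain. Rrm2, a subunit of ribonucleotide reductase, was at 5.68 and 5.08 at P10 and 5.37, 5.09 and 5.19 in adults and did not pass (adjusted p = 0.68). The histone genes H2ac7, H2ac15 and H2ac22, whose transcripts accompany DNA copying, fell 5.51-fold, 4.95-fold and 4.83-fold (adjusted p = 0.000347, 0.000465 and 0.000347). These paralogs are nearly identical in sequence, so their probes may report on one another and they are uncertain as separate genes.

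The mean level over the mitosis list was 6.77 ± 0.11 (SD, n = 4) at E18.5, 6.13 ± 0.42 (n = 3) at P1, 6.42 ± 0.07 (n = 2) at P10 and 5.30 ± 0.21 (n = 3) in adults. For the replication list the corresponding means were 6.69 ± 0.13, 5.90 ± 0.24, 6.52 ± 0.19 and 5.48 ± 0.17. The adult samples were thus below every sample of the other ages in both lists, and the P1 mean was lower than both the E18.5 and the P10 mean. In the mitosis list, however, P1 replicate 1 was at 6.61, above both P10 samples (6.47 and 6.37). P1 replicates 2 and 3 were at 5.85 and 5.92. For the ATF4 list the means were 6.93 ± 0.07, 6.96 ± 0.09, 6.76 ± 0.08 and 7.73 ± 0.21, and for the synthesis list 6.56 ± 0.06, 6.46 ± 0.04, 6.53 ± 0.10 and 7.49 ± 0.14. In both lists the adults were above every sample of the 3 earlier ages, whose means ran from 6.76 to 6.96 in the first list and from 6.46 to 6.56 in the second.

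**Figure D5:**
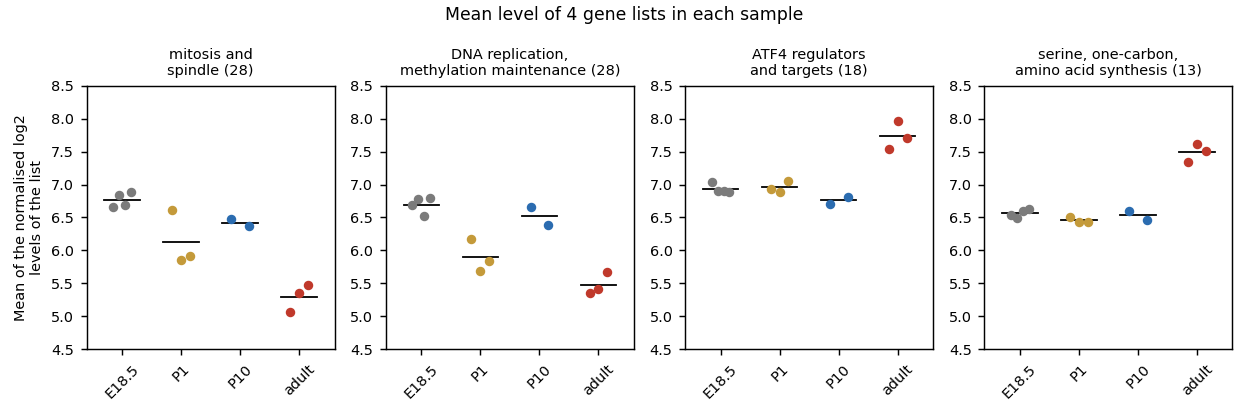
Mean normalised log2 level (y axis) over the tested genes of 4 lists in each sample at the 4 ages. Points are samples and bars are means, with adults at 5.30 and 5.48 in the mitosis and replication lists and at 7.73 and 7.49 in the ATF4 and synthesis lists.

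Promoters of mitotic genes are known for a CCAAT box near a cell cycle gene homology region. Within 250 bases before the start, CCAAT (both strands) was found in 17 and TTTGAA (both strands) in 9 of 24 promoters of the tested mitosis genes. Among promoters of those that fell the counts were 12 and 7 of 19, so the share with either motif was no higher than over all tested members. The shares among all RefSeq promoters were 33.8% and 16%, and among promoters of genes tested 35.1% and 10.5%. Prc1, Top2a and Cdc20, an activator of mitotic exit, hold both and fell more than 3-fold. Smaller falls also occur with both motifs, as in Kif22 (2.36-fold, adjusted p = 0.000272), which is not shown. Prc1 and Top2a, with the smallest adjusted p of the first 3, are shown as 250 bases 5′ to 3′ (RefSeq, GRCm38.p6). All matches of either motif, on either strand, are in capitals.
Prc1, chr7:80294226-80294475, plus strand: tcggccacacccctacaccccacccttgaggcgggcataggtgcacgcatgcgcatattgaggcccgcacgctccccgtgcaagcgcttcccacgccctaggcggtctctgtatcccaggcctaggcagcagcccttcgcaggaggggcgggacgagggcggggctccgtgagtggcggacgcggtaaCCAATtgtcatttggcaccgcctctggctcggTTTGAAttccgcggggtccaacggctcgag
Top2a, chr11:99024190-99024439, minus strand: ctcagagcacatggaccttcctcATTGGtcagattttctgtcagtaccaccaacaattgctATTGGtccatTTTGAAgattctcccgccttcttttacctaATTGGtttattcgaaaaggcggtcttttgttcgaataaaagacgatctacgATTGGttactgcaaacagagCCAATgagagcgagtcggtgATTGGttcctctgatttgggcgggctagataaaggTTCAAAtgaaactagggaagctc
Prc1 holds 2 matches and Top2a 8, and neither the number nor the presence of matches was tested against the size of the fall.

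The regulators upstream of division did not move as one. Of 21 tested G1 cyclins, inhibitors and cell cycle regulators 4 fell (19%) and 2 rose (9.52%), against 6.77% and 5.66% of all genes. Their median was -0.26. Cdk2, the kinase of entry into DNA replication, was at 7.37 and 7.33 at P10 and at 5.31, 5.74 and 5.89 in adults, a 3.25-fold fall (-1.70 ± 0.16, adjusted p = 1.33e-05). Foxm1, a transcription factor of mitotic genes, fell 1.68-fold (adjusted p = 0.00417, or 0.0725 without P10 replicate 2). Cdkn1a, the inhibitor p21, went from 6.79 and 6.78 to 7.25, 8.32 and 7.91, a 2.05-fold rise (adjusted p = 0.0089), while its other, dimmer probes differed by 0.66 and 0.32. Ccnd3, cyclin D3, rose 1.55-fold (adjusted p = 0.0122). Neither rise passed without P10 replicate 1 (adjusted p 0.062 and 0.089) or without P10 replicate 2 (0.0742 and 0.0765). The number of falls in the list was 2 without P10 replicate 1, adult replicate 1 or adult replicate 2, and 1 without P10 replicate 2. Ccnd2, the main D cyclin of beta cells, was at 10.10 and 10.05 at P10 and at 10.32, 10.19 and 9.88 in adults, and the groups overlapped (adjusted p = 0.879).

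Of 16 tested fetal and imprinted genes 6 fell (37.5%, against 6.77% of all genes) and none rose, with a median of -0.49. Nrep, a small protein known from regenerating nerve, was at 10.64 and 10.52 at P10 and at 7.59, 8.13 and 7.66 in adults, the largest fall of all genes called (6.88-fold, -2.78 ± 0.15, adjusted p = 9.99e-08). Its means at E18.5 and P1, 11.43 and 11.54, were within 1 log2 unit of P10. Dlk1, an imprinted ligand of the Notch family, had means of 10.82 at E18.5 and 10.96 at P1. It was at 6.88 and 6.51 at P10 and was not above background in any adult sample, at least 3.47-fold lower (adjusted p = 1.76e-07). Nnat, an imprinted membrane protein, went from 7.47 and 8.14 to 5.93, 5.67 and 5.01 (4.82-fold, -2.27 ± 0.39, adjusted p = 0.00162), with means of 10.46 at E18.5 and 10.23 at P1. Igf2bp3, a fetal RNA-binding protein, was not above background in any adult sample and was at least 2.47-fold lower (adjusted p = 3.89e-06). Grb10, an imprinted brake on insulin signalling, fell 1.84-fold (adjusted p = 0.00688, or 0.0715 without P10 replicate 2). Igf2, the fetal growth factor, was at 7.65 and 8.43 at P10 and 7.97, 7.57 and 6.83 in adults and did not pass (adjusted p = 0.547). Against the mean of E18.5 and P1, a comparison that shares the adult samples and in which 41.7% of genes passed, the adult differences were -3.69 ± 0.12 for Nrep, -6.44 ± 0.10 for Dlk1 and -4.81 ± 0.30 for Nnat, with adjusted p of 1.83e-11, 4.63e-15 and 1.49e-08.

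The remaining leading falls were Oat, Mfng, Mslnl and Igsf1. Oat, ornithine aminotransferase and a gene often named as disallowed in adult beta cells, was at 8.89 and 9.15 at P10 and at 6.28, 6.66 and 6.59 in adults, a 5.69-fold fall (-2.51 ± 0.23, adjusted p = 9.6e-06). It was the single gene of 14 tested on the disallowed list that fell (7.14%, near the 6.77% of all genes), and none rose. Ldha, lactate dehydrogenase A and the best known of them, was at 5.03 and 5.07 at P10 and not above background in any adult sample, and did not pass (adjusted p = 0.392). Mfng, the Fringe enzyme that adds sugars to Notch receptors, went from 6.85 and 7.22 to 4.53, 4.96 and 4.05 (5.73-fold, -2.52 ± 0.21, adjusted p = 4.07e-06), while a second, dimmer probe differed by -0.20. Mfng was above background in 1 adult sample, so the size of its fall is uncertain. It was the largest change among 13 tested Notch and Fringe genes. Of these 2 fell (15.4%) and 1 rose (7.69%), against 6.77% and 5.66% of all genes. Dner, a neuronal ligand of Notch, rose 1.69-fold (adjusted p = 0.00147), and Hes6, a repressor of the Hes family, fell 1.46-fold (adjusted p = 0.00927, or 0.159 without P10 replicate 2). Igsf1, a membrane glycoprotein of the immunoglobulin family, went from 10.27 and 10.06 to 8.0, 7.86 and 8.16 (4.46-fold, adjusted p = 9.99e-08), and Mslnl from 7.91 and 8.07 to 5.73, 6.07 and 5.32 (4.88-fold, adjusted p = 2.43e-06).

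Transcription factors and glucose-sensing genes of the beta cell passed at about the share of all genes (12.4%) or less. Of 18 tested beta cell transcription factors 1 fell and none rose, with a median of -0.11. That gene was Myt1, a factor of endocrine progenitors, at 9.08 and 9.26 at P10 and 7.94, 8.17 and 8.06 in adults (2.16-fold, -1.11 ± 0.13, adjusted p = 7.89e-05). Pdx1 was at 9.09 and 9.33 at P10 and 9.07, 8.65 and 8.89 in adults (adjusted p = 0.188), Nkx6-1 at 9.05 and 9.06 at P10 and 9.53, 9.19 and 9.50 in adults (adjusted p = 0.16), and Neurod1 at 8.67 and 8.54 at P10 and 8.52, 8.38 and 8.07 in adults (adjusted p = 0.284). Their differences of -0.34, 0.35 and -0.28 were below 0.4 in size and did not pass. Mafa, a factor of mature beta cells, was at 5.40 and 5.48 at P10 and at 6.20, 4.95 and 5.60 in adults, with overlapping groups (adjusted p = 0.783). A missed threshold with 2 and 3 samples does not show that levels were equal.

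Of 15 tested glucose-sensing, channel and receptor genes 1 rose, G6pc2, the islet glucose-6-phosphatase, from 11.87 and 11.72 to 12.57, 12.75 and 12.57 (1.78-fold, adjusted p = 0.0311). The adult levels of G6pc2 lie toward the bright end, where levels are close to ranks, so its fold is uncertain. It did not pass without P10 replicate 1 (0.104), P10 replicate 2 (0.199), adult replicate 2 (0.0835) or adult replicate 3 (0.0546). Ucn3, a peptide of mature beta cells, was at 9.70 and 9.79 at P10 and at 10.14, 10.14 and 9.70 in adults (adjusted p = 0.465). Its means at E18.5 and P1 were 6.63 and 7.08, and the adult difference from their mean was 3.13 ± 0.14 (adjusted p = 5.39e-10), while both P10 samples lay within the range of the adults or at its lower end. Slc2a2, the glucose transporter GLUT2, was at 10.21 and 10.05 at P10 and 10.29, 10.37 and 9.97 in adults, and Iapp, the amylin gene, at 12.26 and 11.71 at P10 and 11.98, 11.81 and 12.34 in adults. The groups overlapped for both (adjusted p = 0.83 and 0.921).

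Genes of the secretory granule changed one by one. Of 30 tested, 3 rose (10%) and 3 fell (10%), against 5.66% and 6.77% of all genes, with a median of 0.003. Syt4, a synaptotagmin of the granule, was at 7.72 and 7.89 at P10 and at 9.38, 9.26 and 9.17 in adults, a 2.76-fold rise (1.47 ± 0.13, adjusted p = 4.65e-06), from means of 5.88 at E18.5 and 5.52 at P1. Scgn, the calcium-binding secretagogin, went from 10.84 and 11.25 to 10.11, 10.26 and 9.89 (1.94-fold lower, adjusted p = 0.00122), and Vamp3, a fusion protein of endosomes, from 9.64 and 9.27 to 8.67, 8.58 and 8.77 (1.72-fold lower, adjusted p = 0.00184). The number of rises was 1 without either P10 sample and 5 without adult replicate 1. Among 8 tested neuropeptides Pdyn and Npy made the largest changes. Npy, neuropeptide Y, was at 7.59 and 7.79 at P10 and at 6.51, 5.35 and 4.94 in adults, a 4.24-fold fall (-2.09 ± 0.34, adjusted p = 0.001), after means of 11.62 at E18.5 and 10.93 at P1. Pyy, the related peptide YY, was at 13.35 and 13.24 at P10 and 12.52, 12.60 and 10.16 in adults, lowest in the adult sample that was low in Gcg and Ppy, and did not pass (adjusted p = 0.055). Without any 1 of the 3 adult samples Pyy passed, and without adult replicate 3 its difference was -0.72 (adjusted p = 0.0113). Gal, the galanin gene, was at 5.13 and 4.84 at P10 and at 5.89, 6.01 and 5.17 in adults and rose 1.63-fold (adjusted p = 0.0421), a call that ended without either P10 sample (0.0854 and 0.292), without adult replicate 1 or 2 (0.107 and 0.137), and without any of 4 samples of the earlier ages, with adjusted p of 0.0519 to 0.0553.

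Ghrl, the ghrelin gene of epsilon cells, was at 5.38 and 6.25 at P10 and not above background in any adult sample, and did not pass (adjusted p = 0.112). It passed as a fall without E18.5 replicate 4 (0.00362), which was at 8.20 against 10.05 to 10.61 in the other E18.5 samples, with P10 and adult samples alone (0.01) and with a replicate block (0.00804). With all 12 samples none of the 5 tested delta, PP and epsilon markers passed. All 5 differences were negative (4995 of 9838 over all genes), with a median of -1.21. Their mean was 9.49 and 9.98 at P10 and 9.25, 9.32 and 7.70 in adults.

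Of 10 tested glycolysis genes 2 rose (20%) and 2 fell (20%), against 5.66% and 6.77% of all genes. Eno2 had the larger rise, and Aldoc, a brain-type aldolase, fell 2.21-fold (adjusted p = 0.00233, or 0.058 without P10 replicate 2). Of 54 tested respiratory chain and ATP synthase genes 1 rose, Cox6a2, and 2 fell, which is 1.85% and 3.7% of the list against 5.66% and 6.77% of all genes. Of 25 tested genes of the citrate cycle and its shuttles 2 fell (8%, near the share of all genes), and none fell without either P10 sample. Of 23 tested genes of fatty acid handling 5 fell (21.7%, against 6.77% of all genes) and none rose. The largest fall was that of Lpl, lipoprotein lipase, at 9.82 and 10.01 at P10 and 9.03, 9.02 and 7.30 in adults (2.76-fold, adjusted p = 0.0185). Lpl was lowest in adult replicate 3, and it did not pass without P10 replicate 1 (0.0806) or 2 (0.136). The count of 5 was 1 without P10 replicate 1 or 2 and 3 without adult replicate 3. Hsd17b7, an enzyme of cholesterol synthesis, was 2.05-fold lower (adjusted p = 0.000921). Of 24 tested cholesterol genes 3 fell (12.5%) and 2 rose (8.33%), against 6.77% and 5.66% of all genes. Without P10 replicate 2, 1 of them fell and none rose, and without P10 replicate 1, 1 rose. Of 43 tested cytosolic ribosomal protein genes 1 rose (2.33%, against 5.66% of all genes), and of 68 mitochondrial ones 1 fell (1.47%, against 6.77%).

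Proteasome subunits leaned slightly down, with 25 of 28 differences negative (4995 of 9838 over all genes) and a median of -0.28. The share that fell was 14.3%, against 6.77% of all genes. Of the 28, 4 fell, with the smallest adjusted p for Psma5 (1.48-fold, 0.00626), but 1 fell without P10 replicate 1 and none without P10 replicate 2, where the adjusted p of Psma5 was 0.11. Without adult replicate 3, 1 fell. Of 15 clock genes 2 fell (13.3%, against 6.77% of all genes). These were Per3 (1.68-fold, adjusted p = 0.00269, above background in 1 adult sample) and Per2 (1.61-fold, adjusted p = 0.00979), both repressors of the clock. Per2 did not pass without P10 replicate 1 (0.0684) or 2 (0.0757), and without adult replicate 2 the list had 4 falls. The time of day of collection is not given in the labels.

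Immediate early genes, which respond to stimulation within minutes, were lower in adults in 18 of 19 cases (4995 of 9838 over all genes). Their median was -0.75, but 2 passed (10.5%, against 6.77% of all genes). Egr4, above background in 1 adult sample, was at 6.25 and 7.12 at P10 and at 4.99, 4.73 and 4.62 in adults (3.75-fold lower, adjusted p = 0.00666). Zfp36, which destabilises messenger RNA, was at 8.49 and 9.54 at P10 and 7.80, 8.05 and 6.60 in adults (2.9-fold lower, adjusted p = 0.0325). P10 replicate 2 was the higher P10 sample for both, and neither passed without it (adjusted p 0.119 and 0.329). Zfp36 was lowest in adult replicate 3 and did not pass without it either (0.107). Fos was at 11.74 and 12.45 at P10 and at 11.78, 11.69 and 10.27 in adults, with overlapping groups (adjusted p = 0.131). P10 replicate 2 is also the sample with the highest stromal marker mean, 5.79, and the part of other cells in these values was not tested.

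The remaining lists had few calls. The shares that rose were 13.6% for antigen presentation and interferon, 7.69% for the prolactin and signalling list and 9.09% for antioxidant enzymes, against 5.66% of all genes. Of the prolactin and signalling list 7.69% fell, against 6.77% of all genes, and none fell in the others. Of the antigen presentation and interferon list (22 tested) 3 rose, and Tap2, a subunit of the peptide transporter, was at 7.30 and 7.41 at P10 and at 8.08, 7.86 and 8.24 in adults (1.63-fold, adjusted p = 0.00256). B2m, the light chain of class I molecules, rose 1.94-fold (adjusted p = 0.0304) but did not pass without P10 replicate 1 (0.231) or 2 (0.0747) or adult replicate 1 (0.0851) or 2 (0.0955), and 1 gene of the list rose without either P10 sample. Of 13 tested genes of prolactin, growth hormone and insulin signalling and serotonin synthesis, Cish, a target of prolactin and growth hormone signalling, was at 8.37 and 8.78 at P10 and at 7.85, 7.69 and 6.67 in adults. It fell 2.26-fold (adjusted p = 0.0107, or 0.137 without P10 replicate 2) and was lowest in adult replicate 3. Tph2, a serotonin-making enzyme, rose 1.75-fold (adjusted p = 0.0392) but not without P10 replicate 1 (0.127), P10 replicate 2 (0.218) or adult replicate 1 (0.0861), nor without E18.5 replicate 3 (0.0522) or P1 replicate 2 (0.0506). Of 22 tested antioxidant enzymes 2 rose and none fell, and none rose without P10 replicate 2. Gpx1, a glutathione peroxidase, was the larger of these rises (1.57-fold, adjusted p = 0.0225), and it did not pass without P10 replicate 2 (0.225), adult replicate 1 (0.064) or adult replicate 3 (0.0656).

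Of the markers of other cells, 1 of 5 alpha cell genes rose, Ttr, transthyretin, from 12.02 and 12.26 to 12.65, 12.80 and 13.42 (1.76-fold, adjusted p = 0.00807, or 0.104 without P10 replicate 1). It was highest in adult replicate 3, the sample lowest in Gcg. Ttr lies at the bright end, where levels are close to ranks, so its fold does not measure a change in amount. Of 8 endothelial markers 1 fell, Egfl7 (2.08-fold, adjusted p = 0.00651, or 0.117 without P10 replicate 2). Of 8 duct markers 1 fell, Krt8, a keratin also made by endocrine cells (1.53-fold, adjusted p = 0.0251), and it did not pass without P10 replicate 2 (0.256) or adult replicate 3 (0.0802). None of 8 stromal, 5 leukocyte and 2 erythroid markers passed. All 8 stromal and all 5 leukocyte differences were negative (4995 of 9838 over all genes). The share that rose was 20% of the alpha cell list, against 5.66% of all genes. The share that fell was 12.5% of the endothelial and of the duct list, against 6.77% of all genes.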

How the data were processed

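RNA from sorted beta cells of 12 samples at 4 ages was measured on Illumina bead arrays. The values used are linear probe intensities as the authors deposited them. They never reach 0 (lowest 25.3 to 29.3 per array), array medians lie at 39.1 to 43.4, and the sources used here do not give the scaling or background treatment behind them. A second table holds 24 columns of per-sample values under names that fit no sample label, and it was left out.

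Of 25697 probes 23978 carry 1 gene symbol in the platform annotation and 1719 are unnamed here. Of these, 23962 have a gene ID in the RefSeq table. Intensities were corrected with limma 3.58.1 (normexp, offset 16), quantile normalised and log2 transformed in R 4.3.3. A probe counted as above background where its intensity exceeded the limit that 0.01 of background probes pass, judged from the spread below each array's mode (limits 38.58 to 46.47). Probes above background on at least 2 of 12 arrays were kept, which left 14231 probes, and the brightest probe stood for each of 9838 genes. For 2555 genes with more than 1 kept probe, other probes may differ. No pair of arrays shared more than 0.95% identical values. A linear model with age as factor was fitted to all 12 samples with lmFit and eBayes, and adult minus P10 was tested two-sided with Benjamini-Hochberg adjustment at 0.05. Where a gene was below background in all samples of one age, the fold is given as at least the ratio to the array's limit. The number of arrays limits the precision. Neither scan dates nor slides are known here, so batches could not be examined.

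In simulated data with 200 of 9838 genes changed, the fit for adult minus P10 recovered 28% of log2 changes of 0.5, 92% of changes of 1, and 100% of changes of 2 and 3. Of its calls there, 5.33% were unchanged genes. The simulated noise was independent between genes, and fewer genes were changed than the 1223 called in the data. These rates therefore need not hold for the data.

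Genes were placed in 29 pathway lists and 9 marker lists, which together with the members were chosen with earlier results of these data known. Named genes are the 15 largest rises and 15 largest falls among called genes whose groups do not overlap, leaving out clone-like names; from each list the 4 with the smallest p and the 1 with the largest difference; and a fixed set of beta cell and hormone genes. Atf4, Ccnd2, Cdc20, Cirbp, Ddit3, Dnmt1, Fgf21, Fos, Got1, Got2, Gpt2, Grb10, Herpud1, Hspa5, Igf2, Ldha, Mcm4, Mthfd1, Phgdh, Ppp1r15a, Prc1, Psat1, Rrm2, Spc25, Tars, Top2a and Trib3 were chosen after their values were seen. Alternatives changed the background correction, the scaling, the filter, the probe rule, the variance model, the samples in the fit, a minimum fold, an acinar term, a replicate block and each sample in turn.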

Additional observations from a re-analysis of the deposited data

Results flagged for a closer look

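Among the 30 leading genes, E18.5 replicate 4 stood apart from the other 3 samples of its age for Chac1, at 7.04, and for Pbk, at 8.80. The gap to the nearest sample took up 0.91 and 0.872 of the whole range of the 4. Chance gives such a gap in about 1 in 20 groups, and the P10 and adult groups are too small for this rule.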

How the results depend on the processing

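The 1223 calls became 1108 with a replicate block, but same-numbered samples did not deviate together in every pair (r over genes from -0.0694 to 0.269, and 0.0611 and 0.0201 for the numbers shared by P10 and adult samples), so the numbers were not treated as pairing. With the block Cela1, Ctrc, Gp2, Ddit3 and Zfp36 no longer passed (adjusted p 0.0516 to 0.0786). Background correction, scaling, filter, probe rule, variance model, array weights and the acinar term gave 1031 to 1478 calls. With P10 and adult samples alone, 343 genes were higher. Testing against 1.5-fold left 89 calls, 33 higher and 56 lower, of which 6 belonged to mitosis, 7 to replication, 4 to the ATF4 list and 4 to the synthesis list. Leaving out each sample in turn gave 506 to 1277 calls, 206 to 580 higher and 300 to 697 lower, with 13 to 23 falls in mitosis, 15 to 23 in replication, 4 to 10 rises in the ATF4 list and 6 to 9 in the synthesis list. The lowest counts came without a P10 sample, where 1 sample is left at that age and is assumed to vary like the other groups. No named gene that passed changed direction under any of these settings. Calls of single named genes also ended where a gene's probes were averaged (G6pc2, 0.188; B2m, 0.0669; Hes6, 0.0547), the acinar term (B2m, Ddit3, Gal and Herpud1, 0.0533 to 0.0712), array weights (Tph2, 0.0527), median centring (B2m, Ddit3, Gal, Gpx1, Herpud1 and Tph2, 0.0536 to 0.0768), no background correction (Gal and Tph2, 0.0664 and 0.0646), log2 of the deposited values (Ddit3, Gal, Tph2 and Zfp36, 0.052 to 0.0693), offset 50 (Ctrc, Ddit3, Egr4, Gal, Tph2 and Zfp36, 0.0506 to 0.105), the trended robust variance (B2m, Cela1, Ctrc, Gp2, Lpl and Zfp36, 0.0522 to 0.125) and P10 and adult samples alone (Ctrc, Fgf21, Gal, Gp2, Herpud1, Lpl, Tph2 and Trib3, 0.0517 to 0.102). Some genes that did not pass changed direction, and the cause was not tested. Ins2 differed by 0.082 under median centring and by 0.139 where the deposited intensities were only log2 transformed, Iapp by -0.032 and Mafa by -0.093 with array weights. Leaving out each sample in turn, the differences ran from -0.053 to 0.027 for Ins2, from -0.212 to 0.340 for Iapp, from -0.168 to 0.463 for Mafa, from -0.465 to 0.137 for Rrm2, from -0.239 to 0.107 for Cirbp, from -0.00098 to 0.198 for Slc2a2, from -0.037 to 0.180 for Ccnd2 and from -1.81 to 0.217 for Gcg, whose highest value is that without adult replicate 3. Median centring moved the median of all genes from -0.005 to -0.052. Genes near background have compressed differences, so low genes may be missed.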
